A study of Drosophila melanogaster with 93 samples.

Results

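The dpr and DIP genes of Drosophila melanogaster encode a set of immunoglobulin-domain proteins of the neuronal cell surface, and their cover by the histone modification H3K9me3 was followed here in 31 ChIP-seq libraries. The members were taken by name from the gene annotation, as all genes called dpr with a number and the DIP genes from DIP-alpha to DIP-kappa. The rule itself uses no measured value, but the set was chosen with earlier results of these data known. The rule found 31 of 18164 annotated genes, of which 21 are dpr genes and 10 are DIP genes. There are 26 members on autosomes (18 dpr and 8 DIP) and 5 on the X chromosome (dpr8, dpr14, dpr18, DIP-alpha and DIP-beta), and dpr7 is the member on chromosome 4. All 31 passed the filter on length and mean coverage.

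The libraries came from chromatin tagged in fru P1-expressing neurons, which direct reproductive behavior and in males make the male-specific Fruitless proteins, at 48hr after puparium formation (48hr APF), in 1-day adults (16 to 24 hours after eclosion) and in 10-12 day adults, and from neurons that express the pan-neuronal driver elav in 1-day adults. Males and females were kept apart, with 4 libraries in every group except 10-12 day females, which had 3. Every fly carried 1 copy each of a UAS-Gal4 and a UAS-Chromatag insertion in a w background, with fru P1-Gal4/+ or elav-Gal4/+ as the driver, so all groups shared the tag and differed in the driver, sex and stage. Chromatag is histone H2B with FLAG, a biotin ligase recognition peptide and mCherry, expressed together with the biotin ligase birA. Chromatin was immunoprecipitated for the modification and then pulled down with streptavidin, from pools of sex-sorted animals. Whole pupae were the source at 48hr APF and heads in adults, so stage and source cannot be told apart between them. The tag marks the cells in which the driver is active, and the 2 sets overlap, since fru P1 neurons also express elav.

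Dprs (named for a defective proboscis extension response, a feeding reflex tested with salt in the first mutant, dpr1) and DIPs (Dpr-interacting proteins) bind each other across cells in selective pairs. In the fly nervous system they are used when axons and dendrites choose synaptic partners, and many neuron classes carry their own combination. H3K9me3, trimethylation of lysine 9 of histone H3, is a repressive modification bound by heterochromatin protein HP1 and is dense around centromeres, on chromosome 4 and over repeats. A gene with more H3K9me3 has more of the modification in the mixture of tagged cells, and these libraries cannot tell fewer cells with the mark from less mark per cell.

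The measure used throughout was coverage, the percent of a gene's bases that lie inside the H3K9me3 peaks called in 1 library. Coverage of the gene body (first to last annotated base) was the main measure, and coverage of the windows of 3 kb either side of each transcription start site (TSS) was the second. ChIP libraries held 2119672 to 6306013 tags and gave 18036 to 28267 peaks, which covered 20.6 to 35.3% of the autosomes. The elav libraries held 2295291 to 3012794 tags and were set against inputs of 9951738 to 19100490 tags, while the fru P1 libraries were set against pooled inputs of 41654025 to 55285173 tags. Peaks were shallow, with median fold enrichments over the local background of 1.43 to 1.72, and peaks at a −log10 p of at least 2 covered 0.435 to 6.55% of the autosomes. In 1-day fru P1 libraries the peaks covered 28.9 to 35.3% of the autosomes, against 20.6 to 28.3% in the other libraries. Fold enrichment over the members was as shallow as elsewhere, with medians per member of 1.45 (dpr14) to 1.64 (dpr21).

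The sequence just upstream of the TSS is shown for the DIP members whose promoter held a peak in the most libraries and for dpr members where it held one in none. The promoter was taken as 250 bases before to 50 after the TSS. DIP-theta and DIP-iota had a peak there in 20 of 31 libraries each, and dpr7, dpr18 and dpr21 in 0, of which dpr7 and dpr18 are shown. For X-linked dpr18 the 0 includes 16 male libraries, in which few peaks lay on the X. In the 15 female libraries DIP-theta had a peak there in 10, DIP-iota in 9 and dpr18 in 0. The 250 upstream bases follow, 5′ to 3′ on the gene's strand, read from the RefSeq genome of dm6 (Release 6), with matches to TATAAA or GAGAG or TCAGT on either strand in capitals.
DIP-theta: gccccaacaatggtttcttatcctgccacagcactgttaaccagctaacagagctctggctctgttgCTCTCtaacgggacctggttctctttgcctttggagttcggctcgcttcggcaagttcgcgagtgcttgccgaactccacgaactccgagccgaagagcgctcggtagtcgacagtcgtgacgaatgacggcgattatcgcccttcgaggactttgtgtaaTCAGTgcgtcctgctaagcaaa
DIP-iota: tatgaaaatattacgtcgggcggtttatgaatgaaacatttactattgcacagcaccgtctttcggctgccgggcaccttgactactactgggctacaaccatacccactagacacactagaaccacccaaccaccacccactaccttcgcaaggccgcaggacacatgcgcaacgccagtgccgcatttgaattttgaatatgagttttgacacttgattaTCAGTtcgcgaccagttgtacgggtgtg
dpr7: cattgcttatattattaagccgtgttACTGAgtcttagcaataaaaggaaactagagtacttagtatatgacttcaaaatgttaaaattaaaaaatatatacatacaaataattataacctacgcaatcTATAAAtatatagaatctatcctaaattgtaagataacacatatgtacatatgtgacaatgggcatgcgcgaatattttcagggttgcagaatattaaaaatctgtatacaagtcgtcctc
dpr18: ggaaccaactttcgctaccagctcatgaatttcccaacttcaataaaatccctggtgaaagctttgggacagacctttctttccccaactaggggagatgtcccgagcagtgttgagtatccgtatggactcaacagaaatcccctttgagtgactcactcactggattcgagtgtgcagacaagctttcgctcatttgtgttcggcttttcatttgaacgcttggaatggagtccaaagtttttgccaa

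These stretches lie at chr2L:5658561-5658810 (minus strand) for DIP-theta, chr2L:6621701-6621950 (minus) for DIP-iota, chr4:253330-253579 (minus) for dpr7 and chrX:16063488-16063737 (plus) for dpr18. In the windows of 300 bases G or C made up 53.7 and 50.3% in DIP-theta and DIP-iota, and 31, 46.7 and 26.7% in dpr7, dpr18 and dpr21. These genes were picked as extremes of coverage, and G and C content was not compared with coverage over all members. Across the members, the TATAAA motif (the TATA box) was in 6 of 31 promoter windows (19.4%), against 45.8% of 13945 promoters of the genome. GAGAG, a site of the GAGA factor, was in 13 of 31 (41.9%) against 29.7%, and TCAGT, a core of the initiator, in 24 of 31 (77.4%) against 51.5%. A match describes the letters of the window on either strand, and none of the motifs contains another.

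Single bases were rarely covered from library to library. No base of any member lay in a peak in all 31 libraries, and stretches covered in at least 80% of libraries (of the 15 female libraries for X-linked members) were short. The longest in DIP-alpha was an intronic stretch of 1024 bp at chrX:3565964-3566987, 4.66 kb from the TSS, which was covered in 12 to 13 of 15 female libraries. Autosomal members had shorter ones, the longest being 458 bp in dpr21 (intronic, 2.81 kb from the TSS). Next came 164 bp in DIP-theta (chr2L:5656629-5656792, intronic, 1.77 kb from the TSS) and 162 bp in DIP-gamma (chr3R:28969178-28969339, 5.56% exonic, 1.03 kb from the TSS), both covered in 25 to 26 of 31 libraries. The stretches of the 3 DIP genes are shown on the gene's strand from the RefSeq genome, the middle 300 bases (chrX:3566326-3566625) in the case of DIP-alpha, with the bases covered in the most libraries in capitals.
DIP-alpha: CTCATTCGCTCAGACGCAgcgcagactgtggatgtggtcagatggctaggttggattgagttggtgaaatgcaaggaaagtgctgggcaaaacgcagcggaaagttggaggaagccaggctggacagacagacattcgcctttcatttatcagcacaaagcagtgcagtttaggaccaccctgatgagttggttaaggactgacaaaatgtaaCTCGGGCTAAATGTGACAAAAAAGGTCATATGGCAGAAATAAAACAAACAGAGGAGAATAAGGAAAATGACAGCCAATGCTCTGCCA
DIP-theta: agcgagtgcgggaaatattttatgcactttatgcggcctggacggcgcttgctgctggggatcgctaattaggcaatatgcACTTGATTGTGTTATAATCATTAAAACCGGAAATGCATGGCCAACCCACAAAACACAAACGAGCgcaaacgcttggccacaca
DIP-gamma: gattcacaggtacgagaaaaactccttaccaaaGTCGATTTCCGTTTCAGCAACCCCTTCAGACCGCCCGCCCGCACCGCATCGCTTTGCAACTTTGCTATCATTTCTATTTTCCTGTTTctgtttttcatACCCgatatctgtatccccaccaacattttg

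Pairs of libraries shared about as much of their covered bases within the autosomal members as across the autosomes. Between replicates of a group, shared bases were 31.9% of the bases covered in either library on average (19.1 to 42.3%, 45 pairs), against 31.4% over all autosomal bases. Libraries of the other sex from the same stage and cell type shared 31.5% (60 pairs), against 30.9% over the autosomes. Libraries of another stage or cell type shared 26.7% (360 pairs), against 25.4%. Replicates thus had most of their covered bases apart, within members as elsewhere.

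The DIP genes were the more covered side of the interactome. Over the 31 libraries, mean body coverage of the 8 autosomal DIP genes was 50.8% in DIP-eta, 46.2% in DIP-theta, 45.7% in DIP-gamma, 44.2% in DIP-zeta, 43.3% in DIP-kappa, 41.3% in DIP-delta, 39.4% in DIP-epsilon and 34.6% in DIP-iota. All 8 were above the median of 26.0% over the 1634 autosomal genes of at least 10 kb in the fit (quartiles 17.9 and 34.9%), and 7 were above its upper quartile. DIP-eta lies on 2L at 5601723-5617946, next to DIP-theta with a gap of 8.34 kb between them. DIP-eta had 35.7, 34.6, 49.3 and 37.1% in 48hr APF males against 46.4, 20.7, 37.6 and 27.3% in 48hr APF females. In 1-day fru P1 adults DIP-eta had 61.4, 69.3, 68.2 and 61.4% in males against 59.5, 74.1, 78.0 and 63.5% in females. In 10-12 day adults DIP-eta had 23.2, 63.0, 46.9 and 57.2% in males against 41.9, 25.9 and 37.6% in females. All 1-day values lay above every 48hr APF value and, except for the 10-12 day male library at 63.0%, above every 10-12 day value. In 1-day elav neurons DIP-eta had 65.8, 58.6, 73.1 and 51.8% in males against 67.7, 26.1, 52.1 and 58.5% in females, with 1 female library far below the rest.

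**Figure D1:**
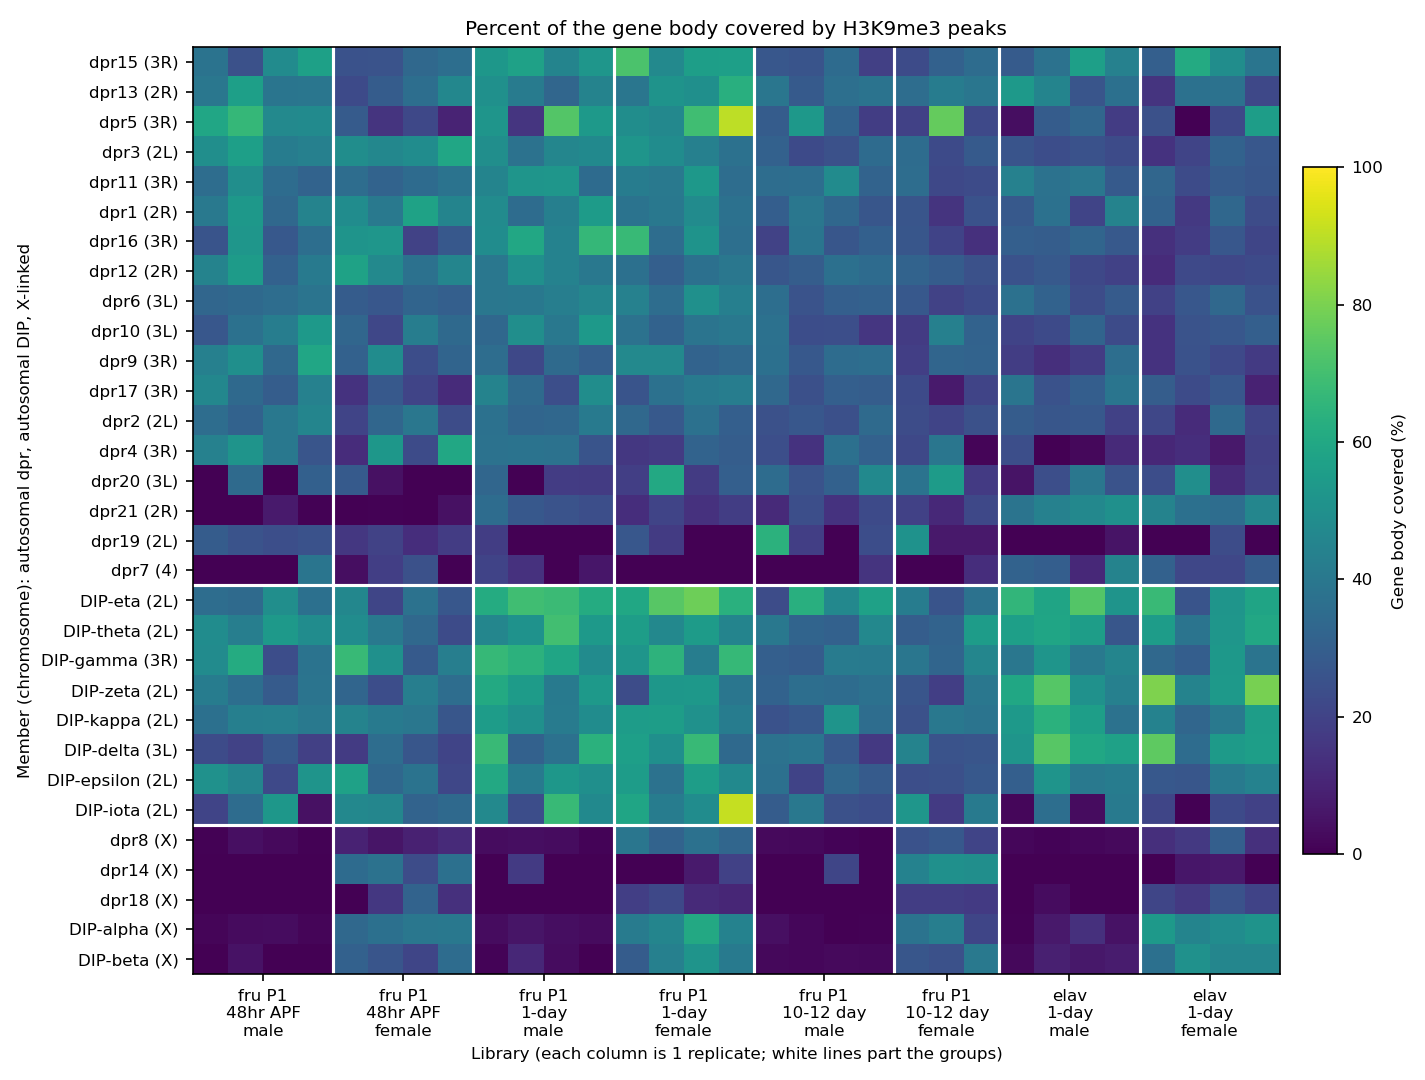
Gene body coverage by H3K9me3 peaks (percent, color scale) of the 31 dpr and DIP genes (rows) in each of the 31 libraries (columns), grouped by stage, cell type and sex. The X-linked genes are low in male libraries, and DIP-eta has the highest mean of all members, 50.8%.

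The 18 autosomal dpr genes ran lower and wider. Mean body coverage was 41.0% in dpr15, 39.2% in dpr13, 38.1% in dpr5, 37.0% in dpr3, 36.8% in dpr11 and dpr1, 34.9% in dpr16, 34.3% in dpr12, 32.9% in dpr6, 32.4% in dpr10 and 31.9% in dpr9. It was 29.6% in dpr17 and 29.5% in dpr2, also above the median of genes of at least 10 kb, and 25.9% in dpr4, 23.9% in dpr20, 21.3% in dpr21, 14.0% in dpr19 and 12.1% in dpr7, below it. Thus 13 of 18 were above that median. The SD of an autosomal member over libraries was 7.60 (dpr2) to 23.0 (dpr5) percentage points, more than any step between neighbours in this order. Gene length was a poor guide to coverage, with a Spearman's rho of 0.14 across the 26 autosomal members and of 0.11 across the 1634 genes, which share their libraries. Body and TSS coverage of the 26 members had a rho of 0.82, with bases shared between the windows and the bodies.

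The least covered autosomal member, dpr7, is a gene of 6.21 kb on chromosome 4 (247124-253329), a chromosome known for its heterochromatin. At 48hr APF dpr7 had 0, 0, 0 and 38.7% in males against 3.90, 18.7, 24.9 and 0% in females. In 1-day fru P1 adults dpr7 had 20.2, 14.2, 0 and 6.04% in males against 0% in all 4 females, and in 10-12 day adults 0, 0, 0 and 14.9% in males against 0, 0 and 13.0% in females. In 1-day elav neurons it had 31.5, 30.0, 11.4 and 44.6% in males against 31.1, 21.3, 21.2 and 28.7% in females. All 8 elav libraries held a peak in dpr7, against 9 of 23 fru P1 libraries. Coverage of the whole of chromosome 4 was 21.8 to 41.2% in elav libraries and 6.39 to 34.7% in fru P1 libraries, and the part of this in the values of dpr7 was not tested. In 1-day fru P1 libraries peaks covered 6.39 to 21.5% of chromosome 4, against 28.9 to 35.3% of the autosomes. At 10-12 days they covered 9.26 to 15.9% against 23.8 to 28.3% in males, and 8.44 to 11.3% against 20.6 to 23.9% in females. The ranges overlapped at 48hr APF and in elav libraries. Peaks were thus sparser on chromosome 4 in adult fru P1 libraries. The modification is known to be dense there, and the reason was not tested.

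Of the short dpr genes, dpr19 (3.74 kb, 2L, 10376168-10379905) was at 0 in 12 of 31 libraries. At 48hr APF dpr19 had 28.9, 25.7, 23.9 and 25.3% in males against 16.4, 19.9, 13.0 and 17.7% in females, and no value was 0. In 1-day fru P1 adults dpr19 had 18.1, 0, 0 and 0% in males against 27.1, 17.5, 0 and 0% in females, and in 10-12 day adults 64.1, 18.4, 0 and 23.5% in males against 50.9, 7.01 and 6.93% in females. In elav neurons dpr19 had 0, 0, 0 and 5.35% in males against 0, 0, 23.3 and 0% in females. A gene this short holds 0.710 peaks per library on average, so its coverage moves with single peaks, while dpr6, the longest member at 165 kb, holds 41.1.

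In each library the difference between the families was taken as the median of the autosomal dpr genes minus that of the autosomal DIP genes. It averaged −12.4 percentage points over the 31 libraries (−33.0 to 4.14) and was negative in 28 of 31. By group it was, at 48hr APF, 0.436 ± 3.01 in male and −7.64 ± 9.16 in female libraries (SD, n = 4 each), and −15.3 ± 5.08 in males and −14.0 ± 3.46 in females of 1-day fru P1 adults (n = 4 each). At 10-12 days it was −4.54 ± 3.38 in males (n = 4) and −9.83 ± 6.36 in females (n = 3). The gap was widest in elav neurons, at −23.9 ± 6.49 in males and −24.2 ± 10.5 in females (n = 4 each), where the dpr medians averaged 28.0 and 23.2% and the DIP medians 51.9 and 47.4%. In TSS windows the difference averaged −20.5 points and was negative in 30 of 31 libraries. The DIP median exceeded the median of genes of at least 10 kb in 30 of 31 libraries by body and in 31 by TSS, and the dpr median in 29 by body and in 13 by TSS. Members of a family are not replicates and several are neighbours, so no test was made.

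**Figure D2:**
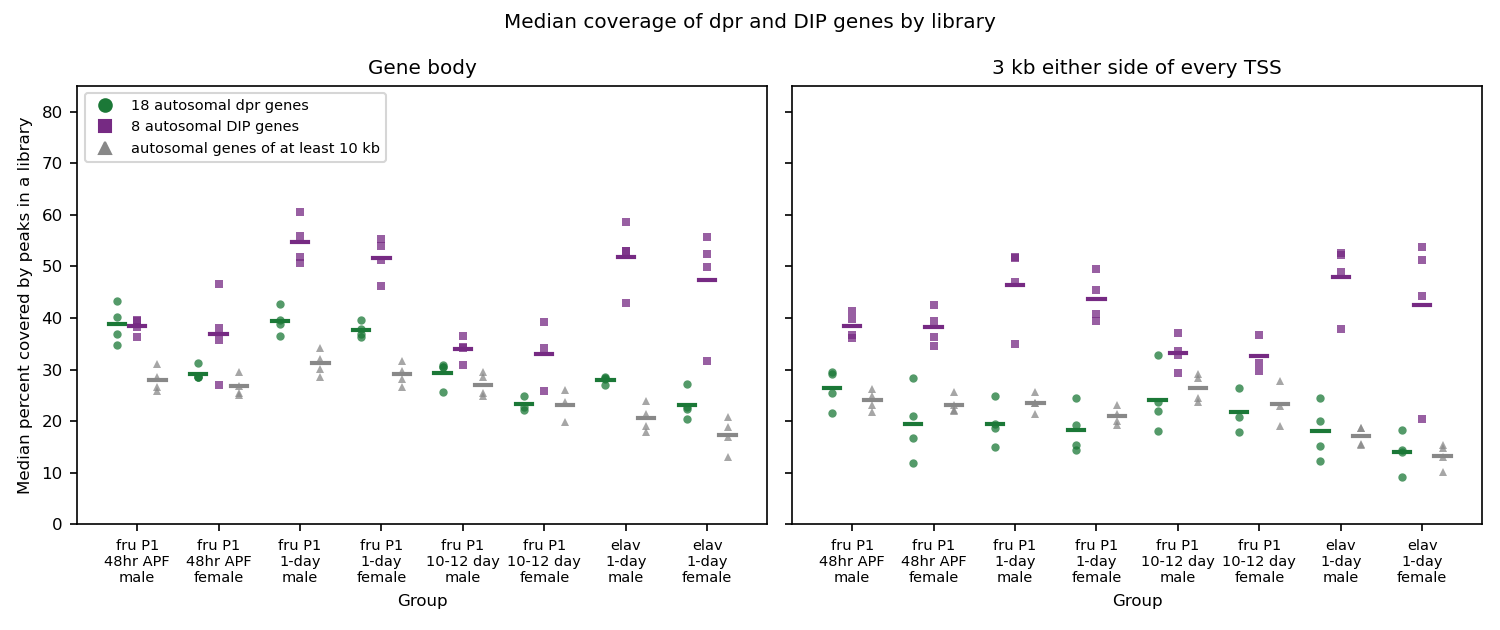
Median coverage (percent) of gene bodies (left) and TSS windows (right) in each library, by group, for the 18 autosomal dpr genes (green), the 8 autosomal DIP genes (purple) and autosomal genes of at least 10 kb (gray), with a point per library and a bar at the group mean. The DIP median lies above the dpr median in 28 of 31 libraries by gene body and in 30 by TSS window.

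Coverage was also described by its place along the gene. For the 10 dpr and 6 DIP autosomal genes of at least 15 kb with 1 annotated TSS, the percent of libraries with a peak at a base was averaged over zones. The median dpr gene had 18.4% from 5 to 2 kb upstream, 17% within 500 bp of the TSS, 25.3% from 0.5 to 3 kb downstream and 33.9% from 5 to 15 kb downstream. The median DIP gene had 46.1, 34.6, 47.6 and 46.9% in the same zones. The lowest values upstream and at the TSS were in dpr21, with 0 and 2.88%, followed by 44.3% from 0.5 to 3 kb and 7.77% from 5 to 15 kb. In dpr3 the low start reached further, with 1.40% upstream, 4.51% at the TSS, 0% from 0.5 to 3 kb and 26.5% from 5 to 15 kb, and a stretch of 9.14 kb in its body was covered in no library. dpr2 ran the other way, with 18% at the TSS and 5.04% from 5 to 15 kb. The DIP gene with the highest value at the TSS was DIP-theta, at 61.3%. The dpr gene with the highest was dpr15, at 38.3%, above DIP-gamma, DIP-epsilon, DIP-zeta and DIP-kappa, so the families overlapped.

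**Figure D3:**
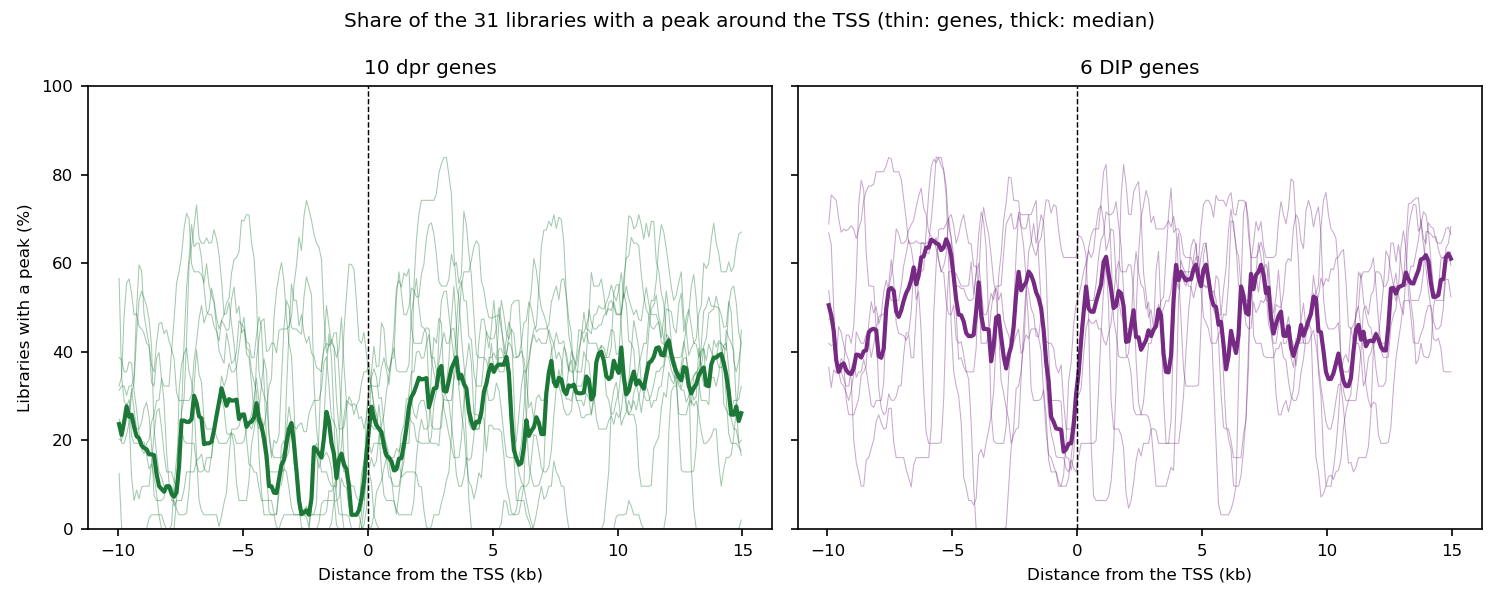
Percent of the 31 libraries with an H3K9me3 peak (vertical axis) against distance from the TSS in kb (horizontal axis, downstream to the right, dashed line at the TSS) for the 10 dpr genes (left) and 6 DIP genes (right) with 1 TSS and at least 15 kb, with a thin line per gene and a thick line for the family's median. Within 500 bp of the TSS the zone averages have a median of 17% in dpr genes and 34.6% in DIP genes.

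Mean coverage was higher over introns than over exons in most members. It was higher over exons in DIP-gamma and, among dpr genes, in dpr3, dpr7, dpr11, dpr16, dpr17, dpr18, dpr19, dpr20 and dpr21. DIP-epsilon had 41.4% over introns and 20.2% over exons, and introns were higher in 30 of 31 libraries. DIP-gamma was the other way, with 44.5% over introns and 62.2% over exons, and introns were higher in 8 of 31. The neighbourhood differed as well. Body coverage of dpr21 was 21.3% and that of the 20 kb on either side 6.07%, with the body higher in 27 of 31 libraries. DIP-alpha had 42.9% in its body against 24.6% in its flanks over the 15 female libraries, and was higher in all 15. The founding gene dpr1 lay in covered surroundings, with 36.8% in its body and 43.6% in its flanks, and was higher than its flanks in 6 of 31 libraries. Bodies hold other annotated genes in places (19 overlap DIP-theta), and peaks were not split between them.

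Known binding partners were set side by side, with each DIP before its Dprs. DIP-alpha, which binds Dpr6 and Dpr10, averaged 42.9% over the 15 female libraries, against 31.1% in dpr6 and 31.2% in dpr10, and was higher in 13 and 12 libraries. DIP-gamma, which binds Dpr11, Dpr15, Dpr16 and Dpr17, averaged 45.7% over 31 libraries, and was higher than dpr11 in 24, dpr15 in 22, dpr16 in 25 and dpr17 in 27. DIP-delta, the partner of Dpr12 in the mushroom body, had 41.3% against 34.3% in dpr12 and was higher in 17 of 31. The 2 genes of DIP-alpha's Dpr partners are neighbours on 3L, with a gap of 8.09 kb between dpr6 and dpr10.

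Sex was compared first, as the mean male-minus-female difference of the 3 fru P1 stages and the elav set, with limma fitted on 11942 genes and a Benjamini-Hochberg adjusted p of 0.05 or less as a call. All 5 X-linked members were lower in males, as were 62.9% of the X-linked genes tested. Means in males and females were 3.57 and 42.3% in DIP-alpha, 3.37 and 36.2% in DIP-beta, 2.37 and 22.8% in dpr14, 2.01 and 21.9% in dpr8, and 0.203 and 17.4% in dpr18. The limma differences ran from −38.7 ± 2.75 points (SE, adjusted p = 1.83e-10) in DIP-alpha to −17.2 ± 2.28 (adjusted p = 2.56e-06) in dpr18. X-linked genes of at least 10 kb as a whole had a median of 2.64% in males and 22.9% in females, so a low male value is shared by the chromosome. Peaks covered 0.839 to 7.53% of the whole X in male libraries, against 19.5 to 31.3% in female libraries, and the part of this in the members' values was not tested. The study's text adds that DNA of the male X was recovered and sequenced, yet MACS2 found few peaks on it, and that neither changed settings nor another caller added many. A low male coverage here counts called peaks only, and the level of the modification itself on the male X was not measured. With peaks of at least 1.5-fold or with the 10000 peaks of smallest p, the calls of DIP-alpha and DIP-beta remained and that of dpr14 was lost (limma adjusted p = 0.812 and 0.669).

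DIP-alpha was covered in nearly every library, with low male values. At 48hr APF it had 1.22, 2.88, 3.22 and 1.18% in males against 33.7, 37.0, 39.6 and 39.9% in females, and in 1-day fru P1 adults 3.16, 5.73, 3.87 and 2.75% against 41.6, 45.6, 60.5 and 44.5%. At 10-12 days it had 4.22, 1.83, 0 and 0.640% in males against 38.2, 42.7 and 20.7% in females, and in elav neurons 0.660, 6.97, 13.8 and 5.04% against 53.9, 45.1, 48.5 and 51.5%. The sexes did not overlap in any combination. DIP-beta, a partner of Dpr8 among others, had 0, 5.07, 0 and 0% in males against 31.2, 26.2, 21.0 and 35.3% in females at 48hr APF, and 1.08, 11.3, 3.37 and 0% against 29.1, 43.4, 51.7 and 40.7% in 1-day fru P1 adults. It had 2.1, 1.61, 2.37 and 2.13% in males against 26.8, 24.7 and 40.3% in females at 10-12 days, and 2.23, 8.74, 6.27 and 7.65% against 36.8, 50.5, 46.0 and 45.7% in elav neurons. Again males and females did not overlap.

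The longest X-linked dpr gene is dpr8 (140 kb, X, 14322226-14462351). At 48hr APF dpr8 had 0.634, 4.2, 2.72 and 0.465% in males against 9.57, 5.78, 9.13 and 11.9% in females, and in 1-day fru P1 adults 3.26, 3.67, 3.48 and 0.924% against 39.3, 32.0, 37.5 and 33.0%. At 10-12 days it had 2.69, 2.13, 0.988 and 0.223% in males against 25.1, 27.5 and 20.5% in females, and in elav neurons 1.60, 0.852, 1.73 and 2.54% against 13.6, 16.7, 30.2 and 14.0%. The sexes were apart in all 4 combinations, and by least at 48hr APF. For dpr18, a gene of 6.57 kb, the male libraries were at 0 in all but 1, the second elav library at 3.24%. Females had 0, 16.1, 32.0 and 13.8% at 48hr APF, 18.7, 21.6, 12.0 and 10.9% in 1-day fru P1 adults, 18, 18 and 16.9% at 10-12 days and 21.0, 16.6, 25.1 and 20.1% in elav neurons. Only the 48hr APF female library at 0 met the male values.

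In dpr14 the sexes overlapped at 1 day. At 48hr APF dpr14, a gene of 4.58 kb, was at 0 in all 4 male libraries against 35.1, 37.9, 23.3 and 37.0% in females, and at 10-12 days it had 0, 0, 21.1 and 0% in males against 44.4, 50.1 and 49.6% in females. In 1-day fru P1 adults it had 0, 16.9, 0 and 0% in males against 0, 0, 7.05 and 19.3% in females, and in elav neurons 0% in all 4 males against 0, 5.91, 7.0 and 0% in females. Over the 20 comparisons of 5 genes in 4 combinations, a two-sided exact permutation test gave p = 0.0286, the smallest that 4 libraries against 4 or 3 allow, in 17. The others were dpr14 in 1-day fru P1 adults (exact p = 0.714) and in elav neurons (exact p = 0.429), and dpr18 at 48hr APF (exact p = 0.143). Of 80 male values 34 were 0. In the same 4 combinations, X-linked genes of at least 10 kb had medians of 1.66 to 3.36% in males and 14.8 to 27.1% in females. The share of all X-linked genes at the smallest exact p is not given, so the count of 17 does not set the members apart from the chromosome.

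**Figure D4:**
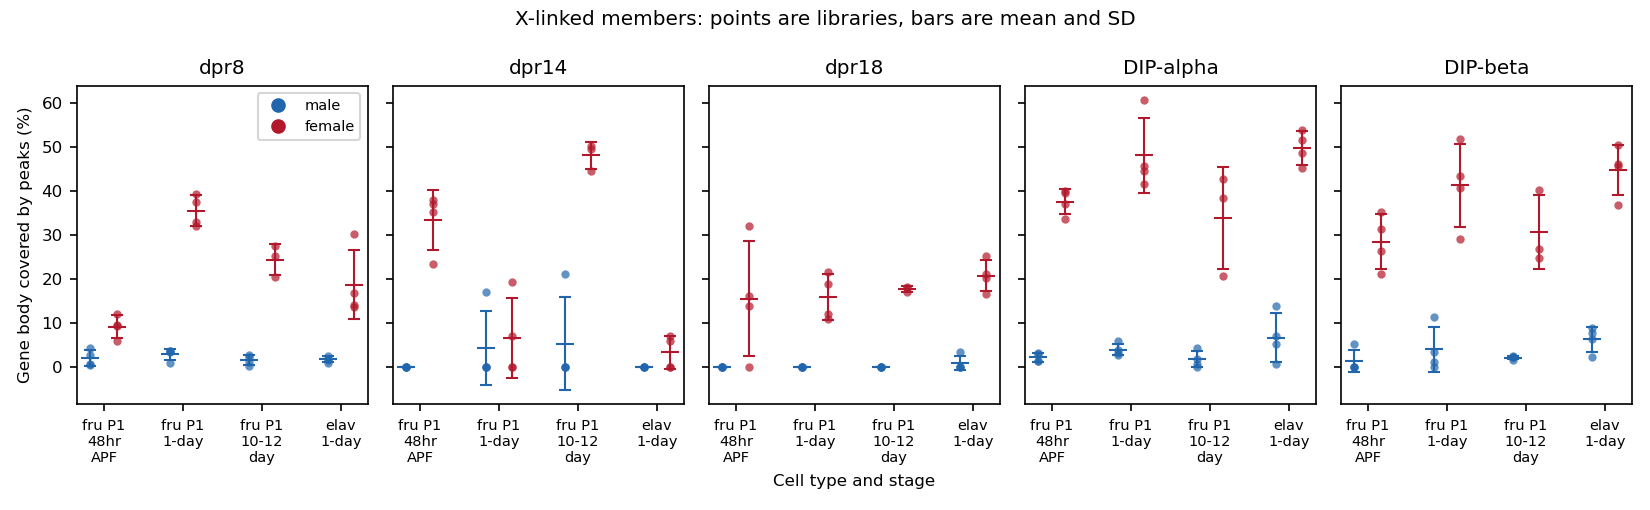
Gene body coverage (percent) of the 5 X-linked members in each male and female library, by stage and cell type, with a point per library and bars for the mean and SD. Male values reach at most 21.1%, and the sexes overlap in dpr14 at 1 day and at 1 female library of dpr18 at 48hr APF.

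Among the 26 autosomal members 1 differed by sex, dpr17 (3R, 12094876-12111420), one of the Dprs bound by DIP-gamma. Of all autosomal genes 0.597% were higher and 0.269% lower in males. dpr17 had 46.3, 34.0, 29.6 and 43.8% in 48hr APF males against 14.7, 27.9, 20.6 and 12.2% in females, and 44.7, 34.6, 23.8 and 48.9% in 1-day fru P1 males against 26.1, 37.2, 40.7 and 42.4% in females. At 10-12 days it had 33.9, 24.4, 30.2 and 29.6% in males against 22.5, 7.18 and 20.6% in females, and in elav neurons 38.8, 25.0, 29.7 and 39.1% against 29.4, 23.0, 27.3 and 9.63%. The sexes did not overlap at 48hr APF and 10-12 days and overlapped in both 1-day sets. The means were 34.8% in males and 23.6% in females, a difference of 11.1 ± 3.48 points (SE, limma adjusted p = 0.0356). The call was lost in 12 of 31 fits that left out 1 library, where the difference was 9.94 to 12.3 points, and with coverage divided by the library's autosomal coverage (adjusted p = 0.0981), with peaks of at least 1.5-fold (0.608) and with the 10000 peaks of smallest p (0.741). Differences were positive in 21 of 26 autosomal members, with a median of 2.85 points against 2.13 for autosomal genes of at least 10 kb and 0.761 for all. They were also positive in 73.3% of autosomal genes of at least 10 kb, so this lean is not particular to the members. With peaks at a −log10 p of at least 2 the median over members was −0.546 points.

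Across stages of fru P1 neurons, some members had more coverage in 1-day adults than in 48hr APF pupae, and others less in 10-12 day than in 1-day adults. In 1-day against 48hr APF, 4 of 26 autosomal members were higher (DIP-eta, DIP-delta, dpr21 and dpr15) and 0 lower. Of all autosomal genes 14.9% were higher and 2.74% lower, so the share of members called was near that of all genes. The median difference was 10.1 points over the members (12.7 in DIP genes and 6.05 in dpr genes), against 2.19 over genes of at least 10 kb and 6.48 over all. All 8 DIP differences and 11 of 18 dpr differences were positive, as were 56.1% of those of autosomal genes of at least 10 kb.

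DIP-eta had 59.5, 65.8 and 78.0% (lowest, median, highest of 8 libraries) in 1-day adults, against 20.7, 36.4 and 49.3% in 48hr APF pupae. The groups were apart, with a difference of 30.8 ± 6.71 points (SE, limma adjusted p = 0.00320). DIP-delta (3L, 5424109-5442399) had 31.2, 53.1 and 67.8% in 1-day adults against 17.3, 21.6 and 35.9% in 48hr APF pupae, a difference of 27.3 ± 6.78 points (limma adjusted p = 0.00779), with overlap at the lowest 1-day values. dpr21 is a gene of 125 kb on 2R (3066499-3191011), on the centromere side of the arm, and had the highest median −log10 p of its peaks among the members, 1.70. It had 13.2, 22.3 and 35.5% in 1-day adults against 0, 0.200 and 7.41% in 48hr APF pupae, where 4 of 8 libraries were at 0. The groups were apart, by 20.8 ± 3.53 points (limma adjusted p = 4.36e-04). dpr15 had 45.2, 54.5 and 71.6% in 1-day adults against 24.7, 35.0 and 56.7% in 48hr APF pupae, a difference of 18.8 ± 5.82 points (limma adjusted p = 0.0281), and the groups overlapped.

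X-linked members were compared in females, where 2 of 5 were called, against 13.2% of X-linked genes in either direction. dpr8 was higher, by 26.3 ± 4.01 points (limma adjusted p = 4.88e-04), with means of 35.4% in 1-day and 9.11% in 48hr APF females. dpr14 was lower, with a difference of −26.7 ± 5.42 points (limma adjusted p = 0.00433), with 6.58% in 1-day and 33.3% in 48hr APF females. Neither gene's groups overlapped, as the library values above show. With coverage divided by the library's autosomal coverage, dpr21 was the 1 autosomal member higher, and dpr3 and dpr12 were lower, in place of 4 higher and 0 lower, and the median over autosomal members was −1.04 points in place of 10.1. With the 10000 peaks of smallest p the limma call of DIP-eta remained (adjusted p = 0.0135), and those of DIP-delta (0.0948), dpr8 (0.0861) and dpr14 (0.186) were lost. Coverage of glial, muscle and fat body markers moved with the stage too. The summed coverage of the 6 autosomal neuronal markers was 124 to 210 in 1-day libraries against 147 to 237 at 48hr APF (medians 172 and 171). Among them Syt1 was at a difference of −11.9 points (limma adjusted p = 0.0243). The summed coverage of the 4 autosomal glial markers was 133 to 224 in 1-day libraries against 95.1 to 160 at 48hr APF, with repo higher by 46.2 points (limma adjusted p = 0.00578), gcm higher by 45.6 (0.0131) and Eaat1 at −24.4 (0.0232). For the other markers, the summed coverage of the 2 autosomal muscle markers (Mhc and Act57B) was 67.4 to 158 in 1-day libraries against 13.7 to 74.6 at 48hr APF (medians 105 and 25.6). That of the 2 autosomal fat body markers (Lsp2 and Fbp1) was 63.4 to 184 against 0 to 176 (medians 170 and 37.2), with no marker at 0 throughout. Mhc was higher by 31.6 points (limma adjusted p = 7.00e-04), Lsp2 by 55.2 (0.00647) and Fbp1 by 43.9 (0.0229). Act57B, at 40.0 points, was not called (0.0597). Their part in the result was not tested.

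In 10-12 day against 1-day adults, both from heads, 8 of 26 autosomal members were lower (dpr16, dpr15, DIP-eta, DIP-epsilon, DIP-gamma, dpr3, dpr1 and dpr6) and 0 higher. Of all autosomal genes 8.02% were lower and 5.5% higher. Differences were negative in 24 of 26, the exceptions being dpr19 and dpr20, and all 8 DIP genes were negative. Most genes leaned the same way, as 32.8% of autosomal genes of at least 10 kb had a positive difference. The median was −14.9 points over the members (−19.9 in DIP genes, −10.7 in dpr genes), against −5.10 over genes of at least 10 kb and −2.28 over all. The summed coverage of the 2 muscle markers was 30.0 to 117 in 10-12 day libraries against 67.4 to 158 in 1-day libraries (medians 59.1 and 105), with Mhc at a difference of −19.2 points (limma adjusted p = 0.0343). The fat body sum was 67.4 to 150 against 63.4 to 184 (medians 110 and 170) and the glial sum 76.3 to 245 against 133 to 224. The sum of the 6 autosomal neuronal markers was 114 to 173 against 124 to 210 (medians 142 and 172). Of these, fru was at −15.1 points (limma adjusted p = 0.0194) and VGlut at −19.9 (0.0310). Their part in the result was not tested.

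dpr16, a partner of DIP-gamma, had 13.9, 26.8 and 38.9% (lowest, median, highest of 7) in 10-12 day adults, against 35.6, 50.1 and 67.3% (of 8) in 1-day adults. The difference was −26.7 ± 6.25 points (SE, limma adjusted p = 0.00692), and the sets overlapped only at their ends. dpr15, another partner, had 19.1, 27.1 and 35.3% in 10-12 day adults against 45.2, 54.5 and 71.6% in 1-day adults, with no overlap and a difference of −26.6 ± 6.06 points (limma adjusted p = 0.00583). DIP-gamma itself had 29.1, 39.1 and 45.7% in 10-12 day adults against 42.4, 61.6 and 66.9% in 1-day adults, with some overlap and a difference of −20.8 ± 6.67 points (limma adjusted p = 0.0404). DIP-eta had 23.2, 41.9 and 63.0% in 10-12 day adults against 59.5, 65.8 and 78.0% in 1-day adults, with some overlap and a difference of −25.6 ± 6.98 points (limma adjusted p = 0.0178). That call was lost without the third 10-12 day female library. DIP-epsilon, which is expressed in fru P1 neurons, had 20.2, 27.7 and 36.9% in 10-12 day adults against 37.9, 51.4 and 60.3% in 1-day adults, with no overlap. With peaks of at least 1.5-fold and with the 10000 peaks of smallest p, the call of DIP-eta remained, that of dpr15 was lost in both (limma adjusted p = 0.127 and 0.582), and that of dpr16 in the second (0.178).

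The X-linked exception was dpr14, higher in 10-12 day females at 48.0% on average than in 1-day females at 6.58%, by 41.4 ± 5.85 points (limma adjusted p = 1.01e-04). It was 1 of 5 X-linked members called, against 9.87% of X-linked genes in either direction, and its adjusted p was 1 with peaks of at least 1.5-fold. With coverage divided by the library's autosomal coverage, dpr14 was called and 0 of the 8 autosomal members were, with relative differences for those 8 of adjusted p 0.101 (dpr16) to 0.560 (DIP-gamma). In a fit on genes of at least 10 kb, chosen after the data were seen, 17 of 20 autosomal members of that length were lower and 0 higher, against 42.2% of 1634 genes in either direction. The same kind of fit called 1 of 20 by sex (6% of genes), 6 in 1-day against 48hr APF (43.8%) and 4 in 10-12 day against 48hr APF (13.9%).

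**Figure D5:**
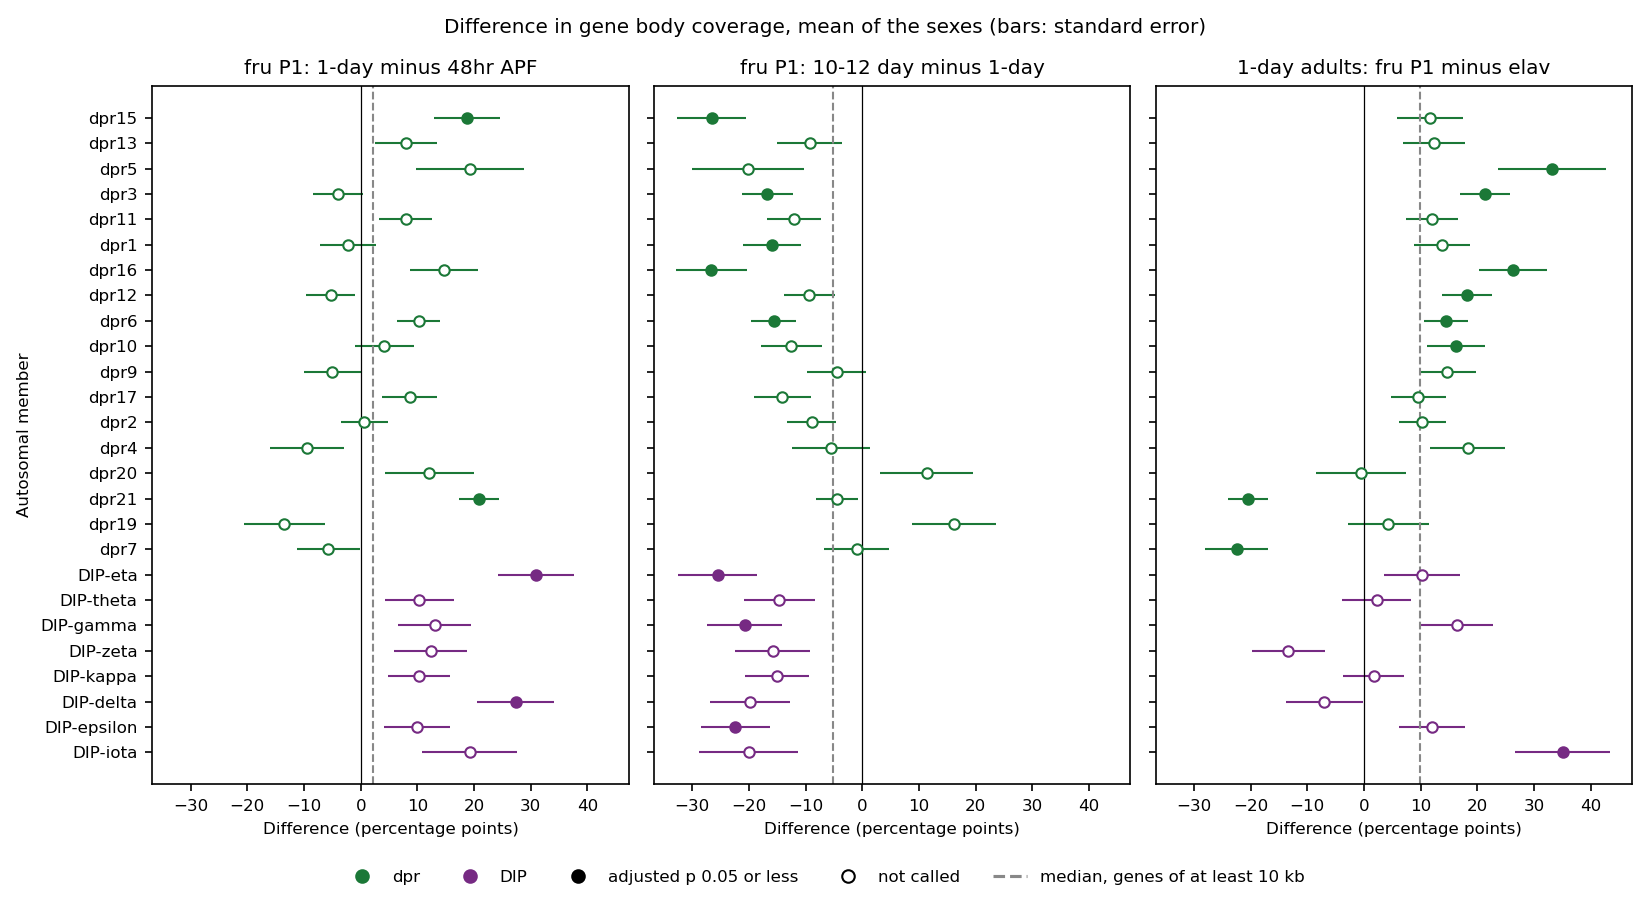
Difference in gene body coverage (percentage points, bars for the standard error) of the 26 autosomal members for 1-day minus 48hr APF, 10-12 day minus 1-day and fru P1 minus elav, filled where the adjusted p is 0.05 or less. The dashed line is the median of genes of at least 10 kb, and in the middle panel 24 of 26 points lie below 0. Of autosomal genes of at least 10 kb, 32.8% lie above 0 in that comparison.

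Against 48hr APF, 10-12 day adults had 1 autosomal member higher, dpr21, and 2 lower, dpr3 and dpr1. Of all autosomal genes 3.57% were higher and 0.607% lower. dpr21 had 11.6, 19.2 and 23.8% in 10-12 day adults against 0, 0.200 and 7.41% in 48hr APF pupae, apart by 16.3 ± 3.67 points (SE, limma adjusted p = 0.0127). dpr3 (2L, 2058790-2109878) had 22.4, 28.3 and 35.5% in 10-12 day adults against 42.0, 48.8 and 59.2% in 48hr APF pupae, with no overlap and a difference of −20.7 ± 4.57 points (limma adjusted p = 0.0106). dpr1, known for salt-taste behavior, had 14.9, 26.8 and 39.6% in 10-12 day adults against 33.6, 44.8 and 57.7% in 48hr APF pupae, with some overlap and a difference of −18.2 ± 5.13 points (limma adjusted p = 0.0418), a call which was lost in 11 of 31 fits without 1 library. The median over members was −5.48 points against −2.32 over genes of at least 10 kb and 5.23 over all autosomal genes. Of the X-linked members limma called 0 of 5 in females, with 2 (dpr8 and dpr14) at an unadjusted p under 0.05, against 6.76% of X-linked genes called. Both had an exact permutation p of 0.0286, and both were called by limma with coverage divided by the library's autosomal coverage. Leaving out the fourth 10-12 day female library gave 5 members called in place of 3. All 3 autosomal calls were lost with fewer peaks. The limma adjusted p was 0.592, 0.324 and 0.592 for dpr21, dpr3 and dpr1 with peaks of at least 1.5-fold, 0.306, 0.0788 and 0.102 with the 10000 peaks of smallest p, and 1 for each at a −log10 p of at least 2, where the difference of dpr1 turned to 0.554 points.

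Over the 3 stages, dpr21 had group means of 1.61, 22.4 and 17.9% at 48hr APF, 1 day and 10-12 days, and DIP-eta 36.1, 66.9 and 42.2%. dpr3 had 49.3, 45.3 and 28.5% over the same stages, and dpr1 45.5, 43.2 and 28.0%. The highest stage was thus 1 day in dpr21 and DIP-eta, and 48hr APF in dpr3 and dpr1, as a description with no test, since the comparisons share libraries.

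Last, fru P1 neurons were set against elav neurons in 1-day adults. There were 7 autosomal members higher in fru P1 (DIP-iota, dpr5, dpr16, dpr3, dpr12, dpr10 and dpr6) and 2 lower (dpr7 and dpr21). Of all autosomal genes 11.4% were higher and 1.55% lower. The median difference was 12.0 points over members (6.24 in DIP genes, 13.1 in dpr genes), against 9.84 over genes of at least 10 kb and 10.3 over all. With peaks of at least 1.5-fold the direction turned, with a median of −1.53 points over members (−10.2 in DIP genes, −0.558 in dpr genes), 0 autosomal members higher and dpr7 and dpr21 lower. The muscle sum was 67.4 to 158 in fru P1 and 52.0 to 161 in elav libraries, the fat body sum 63.4 to 184 and 100 to 186, and the glial sum 133 to 224 and 110 to 236. The neuronal sum was 124 to 210 and 132 to 166, with ChAT at a difference of 16.1 points (limma adjusted p = 0.0449). The part of these markers in the result was not tested. Both Dprs bound by DIP-alpha, dpr6 and dpr10, were among the higher genes, with 42.7 and 40.6% in fru P1 against 28.3 and 24.4% in elav neurons.

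DIP-iota, a gene of 4.57 kb on 2L, had 23.5, 48.0 and 91.4% in fru P1 neurons against 0, 20.1 and 41.2% in elav neurons, an overlapping difference of 35.0 ± 8.40 points (SE, limma adjusted p = 0.0106). dpr5 had 15.5, 53.3 and 90.0% in fru P1 neurons against 0, 23.1 and 55.5% in elav neurons, again with overlap, and a difference of 33.1 ± 9.48 points (limma adjusted p = 0.0253), a call that was lost in 4 of 31 fits without 1 library. Both genes are short and spread widely among libraries. dpr16 had 35.6, 50.1 and 67.3% in fru P1 neurons against 13.8, 27.6 and 32.5% in elav neurons, without overlap, a difference of 26.3 ± 6.01 points (limma adjusted p = 0.00816). dpr3 had 37.3, 46.7 and 52.3% in fru P1 neurons against 14.6, 24.5 and 31.6% in elav neurons, without overlap, by 21.4 ± 4.39 points (limma adjusted p = 0.00461). dpr12, the partner of DIP-delta, had 30.4, 39.6 and 50.2% in fru P1 neurons against 12.1, 21.8 and 27.9% in elav neurons, also apart.

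The lower genes were dpr7 and dpr21. dpr7 differed by −22.4 ± 5.56 points (SE, limma adjusted p = 0.0126), from the library values given above, with means of 5.06% in fru P1 and 27.5% in elav neurons. dpr21 had 13.2, 22.3 and 35.5% in fru P1 neurons against 35.9, 44.5 and 50.3% in elav neurons, apart by −20.5 ± 3.53 points (limma adjusted p = 0.00239). Among X-linked members in females 1 of 5 was called, dpr8, higher by 16.8 ± 4.01 points (limma adjusted p = 0.0258) with 35.4% in fru P1 against 18.6% in elav females, against 7.44% of X-linked genes in either direction. The elav libraries had fewer tags and their own inputs, and covered 22.0 to 28.1% of the autosomes against 28.9 to 35.3% in 1-day fru P1 libraries. On chromosome 4 they covered 21.8 to 41.2% against 6.39 to 21.5%, and the part of this in the call of dpr7 was not tested. With coverage divided by the library's autosomal coverage, 0 members were higher and 3 lower (dpr7, dpr21 and DIP-zeta), in place of 8 and 2. In a fit on genes of at least 10 kb, 14 of 20 autosomal members were higher in fru P1 and 2 lower, against 57.8% of 1634 genes in either direction.

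With the 10000 peaks of smallest p the calls of DIP-iota, dpr5 and dpr16 (limma adjusted p of 0.438 to 0.612) and of dpr7 (0.170) were lost, and that of dpr21 remained (5.15e-04).

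TSS windows gave fewer calls. By sex, 5 of 5 X-linked members were lower in males, as were 89.2% of X-linked genes. By limma 0 of 26 autosomal members were called by sex, with 3 at an unadjusted p under 0.05 and 1.14% of autosomal genes called. In 1-day against 48hr APF, DIP-delta was higher and dpr4 and dpr12 lower, against 19.9% of autosomal genes, and dpr14 was lower in females, against 16.4% of X-linked genes. dpr4 had a TSS coverage of 14.5% in 1-day adults and 43.1% in 48hr APF pupae, and dpr12 of 17.5 and 37.0%. In 10-12 day against 1-day adults dpr16 and DIP-iota were lower, against 22.4% of autosomal genes, and dpr8 and dpr14 higher in females, against 20.6% of X-linked genes. For dpr8 the start moved one way and the body the other, with TSS coverage of 25.0% in 10-12 day and 2.87% in 1-day females and body coverage of 24.4 and 35.4%, a body difference that was not called (limma adjusted p = 0.125).

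In 10-12 day against 48hr APF, limma called 0 of 26 autosomal members in TSS windows, with 8 at an unadjusted p under 0.05, against 6.85% of autosomal genes, and dpr8 was higher in females, against 8.34% of X-linked genes. In fru P1 against elav neurons dpr5, dpr16 and DIP-iota were higher and dpr7 and dpr21 lower, against 15.4% of autosomal genes. By limma 0 of 5 X-linked members were called there, with 1 at an unadjusted p under 0.05, against 5.03% of X-linked genes. Each of these 5 autosomal members was called in the same direction by gene body. TSS windows share bases with gene bodies, so these calls are not independent of each other.

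Other surface genes of neuronal wiring were taken from lists for comparison. Median mean body coverage was 35.8% over the 26 autosomal dpr and DIP genes, against 29.7% over 9 other immunoglobulin genes such as Dscam1 and sns, 27.4% over 13 without immunoglobulin domains such as Ten-m and CadN, and 26.9% over 6 relatives and interactors such as DIP-lambda and cDIP. In 10-12 day against 1-day adults 8 of 26 members were lower, against 2 of 9, 3 of 13 and 1 of 6 in those lists, and none of the lists had a gene higher. In fru P1 against elav neurons 7 of 26 members were higher, against 6 of 9, 6 of 13 and 0 of 6. DIP-lambda, which lies on 2R like dpr21, was lower in fru P1 neurons, with a mean of 13.0% against 27.7% in elav neurons.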

How the data were processed

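The peak lists of 31 H3K9me3 libraries were used. Per the labels and the study's methods, adaptors were removed by the authors with Trimmomatic, Bowtie2 2.2.5 placed the reads on dm6, SAMtools 1.2 kept those aligned at 1 place, and MACS2 2.1.0 (2.1.1.20160309 in the file headers) called broad peaks per library relative to input. The deposited lists give start and end positions in bp, the pileup (a signal, fragments over the peak), the fold enrichment (a ratio to the local background) and −log10 p and −log10 q. The study's methods state a p cutoff equal to a −log10 p of 2. Per library, the median −log10 p of the listed peaks was 1.34 to 1.61. Fragments were taken as 200 bp long, or 140 bp in the third elav male library. Each library was called alone, with unequal inputs and depth, and the part of this in how much is covered was not tested. List names of 1-day fru P1 females carry other numbers than their titles, and titles were used. Inputs, H3 and the columns of q were not analysed here.

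Coverage by merged peaks was computed for Ensembl 115 genes (BDGP6.54, the coordinates of dm6), and sequences were read from the RefSeq Release 6 genome. limma 3.58.1 (R 4.3.3) was fitted to percent coverage with 8 group means and eBayes with trend and robust settings, over 11942 genes (12046 for TSS windows) of at least 1000 bp and a mean coverage of at least 1%, with two-sided p adjusted within each contrast. Stages and cell types were averaged over the sexes for autosomal genes and compared in females for X-linked genes. Exact permutation tests were two-sided, with p as it stands over 20 comparisons. Counts at an unadjusted p under 0.05 are given without the share of all genes and are not read against it. The fits were tested on simulated data. The members and lists were chosen with earlier results of these data known. Named genes were the extremes of coverage, the X-linked and chromosome 4 members, and up to 3 called members of largest difference per direction and contrast; others are named beside them. Separate pools of animals were the replicates, as the study states. Python 3.11.15, NumPy 2.4.6, pandas 2.3.3 and SciPy 1.17.1 were used.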

Additional observations from a re-analysis of the deposited data

Results flagged for a closer look

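Within groups of 4 libraries, 14 values of 120 groups stood apart from the other 3 by Dixon's criterion. Its rate of about 1 in 20 groups by chance holds for normally distributed values. Most of the 14 were in groups whose other values were at or near 0. Where the other 3 are all 0, any value above 0 meets the criterion, so the count is not read against that rate. In dpr7 these were the fourth 48hr APF male library (38.7%) and the fourth 10-12 day male library (14.9%). In X-linked genes of males they were dpr8 in the fourth 1-day fru P1 library (0.924%), dpr14 in the second 1-day fru P1 library (16.9%) and in the third 10-12 day library (21.1%), dpr18 in the second elav library (3.24%) and DIP-beta in the second 48hr APF library (5.07%). In dpr19 they were the first 1-day fru P1 male library (18.1%), the fourth elav male library (5.35%) and the third elav female library (23.3%). In dpr21 they were the third male (7.41%) and the fourth female (4.34%) library at 48hr APF. The DIP genes gave DIP-eta in the third 48hr APF male library (49.3%) and DIP-iota in the second elav female library (0%).

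For dpr14, limma called an interaction of stage and sex. The difference of 10-12 day from 1-day adults was smaller in males than in females by −40.4 ± 7.98 points (SE, limma interaction, adjusted p = 0.0177), the male libraries being mostly at 0 at both stages. Since few peaks were called on the male X, the interaction cannot show whether the modification itself changed differently in the sexes.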

How the results depend on the processing

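Calls of gene bodies moved with the peaks kept and with scaling by autosomal coverage. Peaks at a −log10 p of at least 2 covered 0.435 to 6.55% of the autosomes. With peaks at a −log10 p of at least 2, counts of called members were 0 by sex, 0 for 1-day against 48hr APF, 0 for 10-12 day against 1-day, 0 for 10-12 day against 48hr APF, 1 for fru P1 against elav and 1 in TSS windows, in place of 6, 6, 9, 3, 10 and 19. The dpr minus DIP difference over all members was then −0.403 points in place of −11.7 (± 9.59 SD), 3 of 20 X-linked comparisons remained past the exact test in place of 17, and 2 differences turned round, dpr17 by sex to −0.648 and dpr1 in 10-12 day against 48hr APF to 0.554 points. With the 10000 peaks of smallest p per library the counts were 3, 2, 2, 1, 1, 3 and, for X-linked comparisons, 10. With peaks of at least 1.5-fold, 10-12 day against 48hr APF gave 0, fru P1 against elav 3 and TSS windows 4, and the median of autosomal members in fru P1 against elav turned to −1.53 in place of 12.0 points. With coverage divided by the library's autosomal coverage, 10-12 day against 1-day gave 1, 10-12 day against 48hr APF 7 and fru P1 against elav 3. Exact permutation tests with no adjustment gave 10, 14, 21, 10, 18 and 32. No share of all genes is given for the settings up to here, so these counts show only how the calls move. A fit on genes of at least 10 kb, chosen after seeing the data, gave 4, 8, 19, 5, 17 and 12. Leaving out each library in turn gave 5 to 6, 5 to 7, 6 to 9, 2 to 5, 7 to 11 and 15 to 20 calls, a dpr minus DIP difference of −12.3 to −11.0, and 12 to 18 X-linked comparisons. Replicate numbers were no sign of pairing, since the deviations of same-numbered libraries had correlations of −0.11 to 0.14 in 45 pairs, with 1 above 0.1, and with them as a block the counts were 5, 6, 8, 2, 9 and 18. Of the 20 single differences chosen by size, 95 of 150 alternatives and 592 of 620 fits without 1 library kept direction and side of the threshold; the other differences given were not part of this tally. Whether library depth, peak strength or gene length set which calls were lost was not tested.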
